A study of Mus musculus with 12 samples.

Results

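Expression was compared between a pair of mouse embryonic stem (ES) cell lines that both lack Dicer, the nuclease that cuts microRNA precursors. The lines are named 27G5 and 27H10 in the labels and are called clones here. The material was 4 of the 12 two-colour Agilent arrays of the series. On each of the 4, RNA of Dicer-null 27G5 or 27H10 cells was hybridised with RNA of wild-type ES cells, and each pairing was run on an array 1 and on a dye-swapped array 2. The other 8 arrays of the series held the same Dicer-null cells beside derived lines labelled as overexpressing Dnmt1, or Dnmt3a and Dnmt3b, in each clone. Per the labels, every line grew on gelatin with leukemia inhibitory factor. The labels give neither the strain nor sex of the cells nor the deleted part of Dicer1. Each clone stands for 1 isolate of the Dicer-null genotype, so a difference between the clones cannot be told apart from a difference between any 2 cultures.

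Dicer-null ES cells divide and keep their stem cell character but make no mature microRNAs and differentiate poorly. Independent clones of one genotype can drift in culture in chromosome content, in the methylation of their DNA and in the genes that methylation keeps silent, among them germline genes that are normally read in the testis or the early embryo. Subtracting one clone from the other leaves out what they share, the effect of the missing Dicer included.

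The clone difference was computed as log2(27G5 over wild type) minus log2(27H10 over wild type), array 1 against array 1 and array 2 against array 2, in which the common wild-type channel cancels. The 4 arrays lay on 1 slide. Each value below is the mean of those 2 orientations on the log2 scale, ± SD over the 2 orientations (n = 2 technical arrays). Positive values are higher in 27G5. Each clone was taken as 1 RNA, since the labels do not say whether its arrays shared an extract. No p-value is therefore given for these differences. If the extract was shared, the SD covers labelling and hybridisation alone. A gene was called when its difference was at least 1 in size (a doubling) with one sign in both orientations and the scanner software marked the higher clone's signal as well above background on both of its arrays.

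The deleted gene, Dicer1, was read by 2 probes: the brighter one was at -0.78 and -0.30 in 27G5 and at -0.69 and -0.57 in 27H10 relative to wild type, and the second at -5.38 and -5.58 in 27G5 and at -5.24 and -5.52 in 27H10. The values of the clones overlapped at both probes, and the clone difference of Dicer1 at its brighter probe was 0.09 ± 0.26. Of the defining ES cell markers Pou5f1, Sox2, Nanog, Zfp42, Esrrb and Klf4, 6 of 6 were well above background in both clones, with clone differences between -0.55 (Pou5f1) and 0.40 (Nanog). Of 7 fibroblast markers, 4 were well above background in each clone, with differences between 0.18 and 0.46. Of 5 trophoblast markers, 4 were well above background in 27G5 and 5 in 27H10. Of 6 primitive endoderm markers, 5 were well above background in each clone, and their differences lay between -0.78 and 0.69. Of 4 neuroectoderm markers 3 were well above background in each clone, and of 4 mesoderm markers 2 in 27G5 and 3 in 27H10. In bulk RNA, fewer cells of a type and less RNA per cell cannot be told apart.

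Of 18060 genes tested, 132 were called (0.731%), 97 of them higher in 27G5 (0.537%) and 35 higher in 27H10 (0.194%). Among the largest differences in favour of 27G5 with both clones well above background were those of the X-linked germline genes Magea3 (2.64 ± 0.13) and Magea8 (2.18 ± 0.15), of Pramel7 (2.26 ± 0.08), of the lectin gene Mgl2 (2.05 ± 0.11) and of the kinase gene Dyrk4 (1.98 ± 0.82). Those in favour of 27H10 were of mixed kinds, among them the nuclear RNA Neat1 (-1.50 ± 0.13), the receptor gene Adrb1 (-1.32 ± 0.03) and the MHC class II gene H2-Eb1 (-1.30 ± 0.03). The arrays of the clones did not overlap in any called gene (132 of 132), which the size required by the call makes likely; they did not overlap in 38.5% of all genes tested. Most genes differed little: 89.1% of those tested lay within 0.5 of 0. The 2 orientations correlated at r = 0.650 across genes, which are not independent replicates, and the SD of the difference over genes was 0.36 in each.

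**Figure D1:**
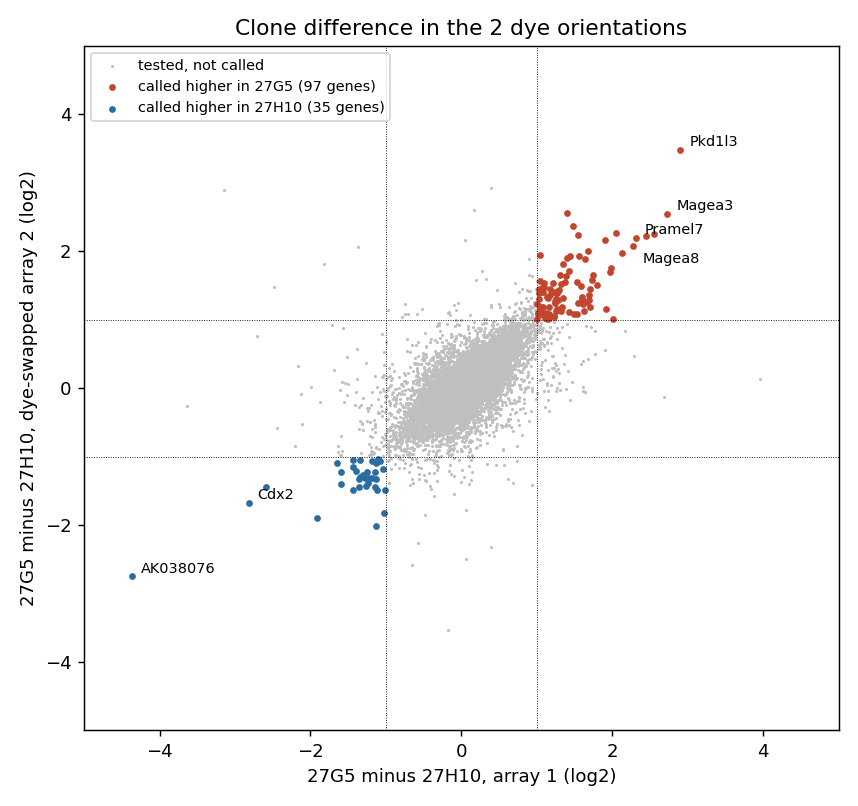
Clone difference of every tested gene in array 1 (x axis, log2) and in the dye-swapped array 2 (y axis, log2), with 97 genes called higher in 27G5 in red, 35 called higher in 27H10 in blue and all others in grey; dotted lines mark a size of 1. Magea3 and Pramel7 lie near the diagonal at the upper right, and genes that pass a size of 1 in 1 orientation only stay grey.

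The number of calls depended on the scaling. After background correction with normexp and loess normalisation in place of the deposited values, 23 genes were higher in 27G5 and 6 in 27H10, and 27 genes were called under both scalings (21 and 6). The sign was kept by all 132 called genes. The ratio of the loess value to the deposited value had a median of 0.713 over the 91 called genes whose signal was well above background in both clones, and of 0.257 over the other 41. Both clones were well above background for 68 of the genes higher in 27G5 and 23 of those higher in 27H10. For 18 and 8 genes the lower clone was not well above background on either array, so the size of the difference is not known; for such genes the deposited and the loess value are both given, and neither is an exact fold. In the text, weight is therefore given to the 27 genes called under both scalings, of which 25 were well above background in both clones on both arrays. At the threshold, 44 called genes had a smaller orientation between 1 and 1.1, and 64 tested genes lay just outside it, between 0.9 and 1.

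Whole-chromosome shifts were set apart. The median difference was 0.28 on chromosome 11, 0.20 on chromosome 6 and 0.07 on the X chromosome, and lay between -0.04 and 0.02 on every other autosome. Each gene's difference was therefore also taken relative to the running median over the 51 nearest genes on its chromosome. Of the 132 called genes, 122 kept a size of at least 1 in their mean after the subtraction (0.676% of genes tested), 87 higher in 27G5 and 35 higher in 27H10. Genes called higher in 27G5 were 16 of 1511 tested on chromosome 11, 14 of 908 on chromosome 6 and 12 of 640 on the X chromosome. Over all chromosomes they were 97 of 18060 (0.537%). Without chromosomes 6 and 11, an alternative added after the data were seen, 67 and 32 genes were called.

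The Magea genes belong to the melanoma antigen family, whose type I members sit in clusters on the X chromosome, are read in male germ cells and are known for their reactivation in tumours. Pramel6 and Pramel7 encode leucine-rich-repeat proteins of the early embryo, and Pramel7 is known for promoting the loss of Uhrf1 and low DNA methylation in ES cells. The 120 bases before the RefSeq start of the 4 Magea genes called and of both Pramel genes are shown here (build GRCm38.p6, 5′ to 3′ on the gene's strand), because these 6 genes are neighbours within their clusters and were called in the same direction. Capitals mark CG dinucleotides, the substrate of DNA methyltransferases.
Magea3 (X, 154949570 to 154949689, minus strand): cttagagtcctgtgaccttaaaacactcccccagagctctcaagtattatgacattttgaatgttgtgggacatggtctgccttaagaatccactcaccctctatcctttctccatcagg
Magea5 (X, 155061554 to 155061673, minus strand): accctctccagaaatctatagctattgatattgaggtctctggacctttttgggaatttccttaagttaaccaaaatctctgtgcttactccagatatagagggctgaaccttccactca
Magea6 (X, 154926116 to 154926235, minus strand): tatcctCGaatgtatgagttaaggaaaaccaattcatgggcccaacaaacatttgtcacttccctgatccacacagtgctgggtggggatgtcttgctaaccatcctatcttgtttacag
Magea8 (X, 154995851 to 154995970, minus strand): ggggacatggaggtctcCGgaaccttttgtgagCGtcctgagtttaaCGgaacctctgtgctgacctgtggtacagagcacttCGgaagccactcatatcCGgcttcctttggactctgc
Pramel6 (2, 87506445 to 87506564, plus strand): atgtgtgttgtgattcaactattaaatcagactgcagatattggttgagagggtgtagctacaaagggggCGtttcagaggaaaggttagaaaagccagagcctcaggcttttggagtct
Pramel7 (2, 87492419 to 87492538, minus strand): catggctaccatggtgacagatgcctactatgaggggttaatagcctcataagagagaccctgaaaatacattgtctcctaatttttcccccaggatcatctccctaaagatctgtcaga

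These windows differed in CG content. They are placed by the RefSeq start, and the start used in these cells was not measured, so the counts describe these letters and not the promoters in use. Magea8 had 5 CG, Magea6 and Pramel6 had 1 each, and Magea3, Magea5 and Pramel7 had 0. Of the 32851 RefSeq windows of this length and position, 82.2% held at least 1 CG, and the median was 3. The Ets-type core CCGGAA, searched on both strands, was in the Magea8 window alone among the 6, and in 8.07% of all windows; this motif contains a CG. Over all genes called higher in 27G5, 70 had a window, with a median of 5 CG, against 4.5 over 22 windows of genes higher in 27H10 and 9 over the 11670 windows of all tested genes. The CCGGAA core was in 7 of the 70 windows, in 2 of the 22 and in 14.3% of those of all tested genes.

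Magea3 was read at 4.42 and 4.45 over wild type in 27G5 and at 1.69 and 1.91 in 27H10. Both clones were above wild type, and both arrays of 27G5 were above both of 27H10, by a difference of 2.64 ± 0.13 (6.22-fold; probe at X:149749781-149749840 on build mm7, minus strand). Magea8 was at 4.96 and 4.95 in 27G5 and at 2.68 and 2.88 in 27H10, a difference of 2.18 ± 0.15. Magea6 was at 4.46 and 4.09 in 27G5 and at 2.56 and 1.93 in 27H10, where it was well above background on 1 of 2 arrays. Its difference was 2.03 ± 0.18. Magea5 was at 2.36 and 2.67 in 27G5 and at 0.91 and 0.74 in 27H10, a difference of 1.69 ± 0.34. After loess normalisation the 4 differences were 1.73, 1.45, 1.26 and 1.20 in the same order. Magea1, at 1.09 ± 0.48, was not called, since array 2 gave 0.75 and array 1 gave 1.42; its loess value was 1.51.

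The called Magea probes lay between X:149725197 and X:149855071 (mm7), and the 4 genes tested in that span were all called. This stretch was looked at after the values were seen. Of 15 members of the Mage family that were tested, 4 were called (26.7%), beside 0.731% of all genes. Of the 15, 12 were above 0 (52.1% of all genes were), with a median of 0.43 against 0.01 over all genes tested. The members outside the Magea cluster were low in size: Maged1 was at 0.49, Magee1 at 0.43, Mageb4 at 0.40, Magel2 at -0.05, Magee2 at -0.41 and Mageh1 at -0.44. The 60-base probes of Magea3 and Magea1 shared 40 identical bases in their best local alignment, while no other pair among Magea1, Magea3, Magea5, Magea6 and Magea8 shared more than 18. The values of Magea3 and Magea1 are therefore uncertain as separate measurements. Probes were compared with probes and not with the transcripts of the other genes. Low sharing between probes thus cannot show that the other Magea values are separate measurements.

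Pramel7 was at 3.74 and 3.77 over wild type in 27G5 and at 1.43 and 1.57 in 27H10, a difference of 2.26 ± 0.08 (4.78-fold; probe at 2:87332937-87332996, mm7, minus strand). Its neighbour Pramel6 was at 3.12 and 2.50 in 27G5 and at 2.11 and 1.42 in 27H10, a difference of 1.05 ± 0.04. The ratios of Pramel6 were lower on array 2 in both clones, so its difference held although array 1 of 27H10 came near array 2 of 27G5. Their probes shared 8 bases at most, but the match of each probe to the other gene's transcript was not examined. Of 4 Pramel genes tested, 2 were called and the lowest was at -0.53. Further germline or X-linked genes were called in the same direction. On the X chromosome 12 genes were called higher in 27G5 and 1, Ssxb2, higher in 27H10 (-1.37 ± 0.39). Nxf3, of the nuclear RNA export factor family, was at 2.07 and 1.62 in 27G5 and at 0.32 and -0.03 in 27H10 (1.70 ± 0.07). Rhox2a, a homeobox gene of the reproductive X-linked cluster, was at 3.39 and 3.30 in 27G5 and at 1.84 and 2.06 in 27H10 (1.39 ± 0.22), and near-identical Rhox2 copies may share its signal. Cyct, the testis form of cytochrome c, was at 1.37 and 1.44 in 27G5 and at 0.20 and 0.08 in 27H10 (1.27 ± 0.13).

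Of 7 Rhox genes tested, Rhox2a was the only one called (14.3%, beside 0.731% of all genes). All 7 were above 0 (52.1% of all genes were), with a median of 0.84. Rhox6 was at 0.96 ± 0.27, Rhox9 at 0.84 ± 0.13, Rhox4e at 0.72 ± 0.10 and Rhox5 at 0.53 ± 0.06. Rhox3a, at 1.66 ± 1.79, differed between its orientations by more than its size. The direction was not general to germline genes: of 26 genes on a germline list 0 were called, with a median of 0.13, and of 10 genes of the 2-cell stage 0 were called, with a median of 0.32, where Zscan4c was at 0.30 and Zfp352 at 0.96. Of 8 Y-linked genes, the spermatogenic RNA-binding gene Rbmy was called at 1.11 ± 0.02, while the list's median was -0.21 and Uba1y, encoding a ubiquitin-activating enzyme, was at -0.34 ± 0.13.

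**Figure D2:**
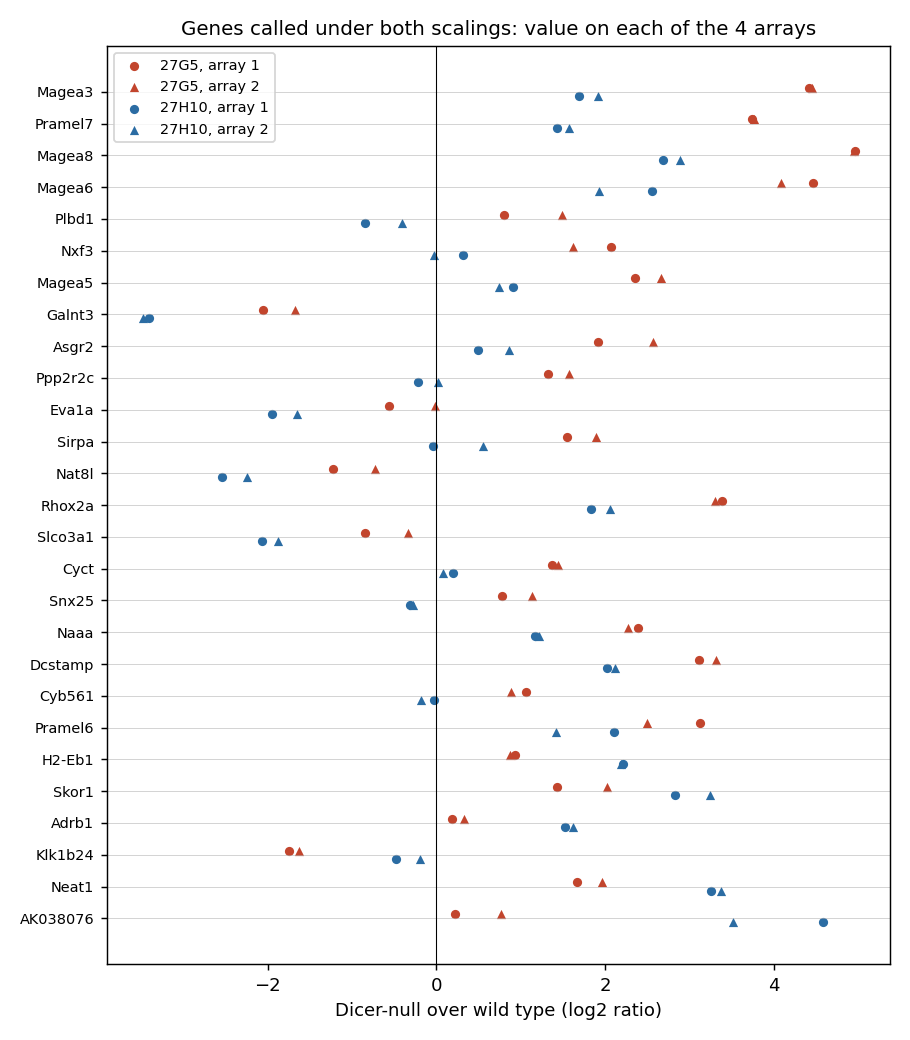
Log2 ratio of Dicer-null over wild type (x axis) on each of the 4 arrays for the 27 genes called under both scalings, ordered by clone difference, with 27G5 in red, 27H10 in blue, circles for array 1 and triangles for the dye-swapped array 2. Magea3, at 4.42 and 4.45 in 27G5 and 1.69 and 1.91 in 27H10, is at the top; each gene from H2-Eb1 downward is higher in 27H10.

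A neighbouring trio of C-type lectin genes on chromosome 11 was called higher in 27G5, the 3 tested genes between 70187640 and 70252363 (mm7), a stretch also picked after the values were seen. Asgr2, a subunit of the asialoglycoprotein receptor that clears desialylated glycoproteins, was at 1.92 and 2.57 in 27G5 and at 0.49 and 0.87 in 27H10 (1.57 ± 0.19). Clec10a, a galactose-binding lectin of macrophages, was at 4.25 and 3.41 in 27G5 and at 2.63 and 2.29 in 27H10 (1.37 ± 0.35). Mgl2, its close relative, was at 3.07 and 2.71 in 27G5 and at 0.94 and 0.73 in 27H10 (2.05 ± 0.11). After loess normalisation Asgr2 was at 1.49, Clec10a at 0.87 and Mgl2 at 0.69, so Asgr2 alone of the 3 stayed called. All 3 were above wild type in both clones. After the chromosome's running median was subtracted, the 3 differences were 1.28, 1.08 and 1.77. The best alignment between their probes shared 10 bases, but the match of each probe to the other genes' transcripts was not examined.

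The other genes called higher in 27G5 under both scalings had varied roles. Plbd1, a phospholipase B-like enzyme on chromosome 6, was at 0.80 and 1.49 in 27G5 and at -0.85 and -0.41 in 27H10, so the clones lay on opposite sides of wild type (1.77 ± 0.18; 1.47 after the running median). Galnt3, which starts mucin-type O-glycosylation, was below wild type in both clones, at -2.05 and -1.67 in 27G5 and at -3.41 and -3.48 in 27H10 (1.58 ± 0.32; its 2 probes gave 1.58 and 1.63). Ppp2r2c, a regulatory subunit of protein phosphatase 2A, was at 1.32 and 1.57 in 27G5 and at -0.22 and 0.02 in 27H10 (1.54 ± 0.01). In Ppp2r2c 27H10 lay close to wild type and 27G5 above it.

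Eva1a, a membrane protein linked to autophagy, was at -0.56 and -0.01 in 27G5 and at -1.94 and -1.66 in 27H10 (1.51 ± 0.18). Nat8l, which makes N-acetylaspartate, was at -1.22 and -0.72 in 27G5 and at -2.54 and -2.24 in 27H10 (1.42 ± 0.14). Slco3a1, an organic anion transporter, was at -0.84 and -0.33 in 27G5 and at -2.06 and -1.87 in 27H10 (1.38 ± 0.23). In Nat8l and Slco3a1 both clones lay below wild type, 27H10 farther. In Eva1a 27H10 lay below wild type, and 27G5 was close to it on array 2. Sirpa, the receptor that reads CD47 on other cells, was at 1.46 ± 0.18, with its 3 probes between 0.72 and 1.46. Snx25, a sorting nexin, was at 1.25 ± 0.23. Naaa, which hydrolyses N-acylethanolamines, was at 1.14 ± 0.12, and Dcstamp, known for the fusion of osteoclasts, at 1.14 ± 0.07. Cyb561, a transmembrane electron carrier on chromosome 11, was at 1.07 ± 0.01 but at 0.74 after the running median.

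Position relative to wild type divided the calls. Of the 97 genes higher in 27G5, 35 were above wild type in both clones, 24 below it in both, and 38 had the clones on opposite sides. Of the 35 genes higher in 27H10, 21 were above wild type in both clones, 10 below it in both, and 4 had the clones on opposite sides. Neither set held a gene at least 1 above wild type in 1 clone and at least 1 below in the other (0 and 0). In 28 of the 97 genes 27G5 was at least 1 above wild type with 27H10 within 1 of it, and in 25 27G5 was within 1 of wild type with 27H10 at least 1 below.

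Among the genes higher in 27H10, Neat1, the long noncoding RNA that scaffolds paraspeckles, was at 1.67 and 1.97 over wild type in 27G5 and at 3.26 and 3.37 in 27H10 (-1.50 ± 0.13; probe at 19:5737370-5737429, mm7). Both clones were above wild type, with 27H10 farther. Skor1, a corepressor of the Ski family, was at 1.43 and 2.02 in 27G5 and at 2.83 and 3.24 in 27H10 (-1.30 ± 0.12). Adrb1, the beta-1 adrenergic receptor, was at 0.19 and 0.33 in 27G5 and at 1.53 and 1.62 in 27H10 (-1.32 ± 0.03), although its second probe gave -0.38. Klk1b24, a glandular kallikrein, was at -1.75 and -1.63 in 27G5 and at -0.48 and -0.20 in 27H10 (-1.35 ± 0.11). The loess values of the 4 genes were -1.51, -1.27, -1.07 and -1.08 in the same order.

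H2-Eb1, the beta chain of an MHC class II molecule, was at 0.93 and 0.87 in 27G5 and at 2.21 and 2.19 in 27H10 (-1.30 ± 0.03). It lies in the MHC on chromosome 17 near Psmb8, an immunoproteasome subunit, which was at -1.40 and -1.45 in 27G5 and at -0.29 and -0.41 in 27H10 (-1.07 ± 0.05). Other antigen-processing genes of that region were lower in 27G5 without reaching a size of 1. The peptide transporter genes were at -0.80 ± 0.13 (Tap2) and -0.65 ± 0.11 (Tap1). The immunoproteasome gene Psmb9 was at -0.76 ± 0.06, and Tapbp only at -0.18 ± 0.08. Of 4 genes tested from Psmb8 to H2-Eb1, Tap2 and the class II gene H2-Ab1 were not called. Of 29 interferon-response and MHC genes tested, Psmb8 alone was called, 18 were below 0 in both orientations (33.1% of all genes were), and the median was -0.10. The regulator Irf1 was at 0.03, and the class I chain genes H2-K1, H2-D1 and B2m at -0.06, -0.19 and -0.09.

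Further genes higher in 27H10 had both clones well above background but loess values under 1 in size. Itga8, an integrin subunit, was at -3.64 and -3.58 in 27G5 and at -2.28 and -2.14 in 27H10 (-1.40 ± 0.07; -0.89 after loess). Dync1i1, an intermediate chain of cytoplasmic dynein, was at -1.27 ± 0.07, Ankrd34a at -1.30 ± 0.26 and Plppr1 at -1.29 ± 0.22. Clic5, of the chloride intracellular channel family, was at -1.41 ± 0.26, but its 3 probes ranged from -1.41 to -0.12. Cdh4, encoding R-cadherin, was at -1.09 ± 0.03 with probes from -1.09 to -0.23.

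Several of the largest deposited differences were of dim spots. Cdx2, the homeobox gene that directs the trophectoderm, was at -4.85 and -5.11 in 27G5, where it was not well above background on either array, and at -2.03 and -3.43 in 27H10, a difference of -2.25 ± 0.81. Its loess difference was -0.60, and the same Dicer-null cells on the other arrays gave -0.16. Of 16 trophoblast genes tested, Cdx2 was the only one called, and their median was -0.01. Pkd1l3, of the polycystin family, was not well above background in 27H10 and differed by 3.19 ± 0.41 on the deposited scale and by 0.69 after loess. In the same way Slc41a2, a magnesium transporter, fell from 2.41 ± 0.21 to 0.59, Abhd15 from 2.16 ± 0.16 to 0.47 and Nr2e3 from 1.92 ± 0.63 to 0.29 between the scalings. Ccdc69 fell from 1.87 ± 0.16 to 0.37, Cfi from 1.84 ± 0.23 to 0.47 and Mfsd4b1 from 1.83 ± 0.19 to 0.52. Of genes not well above background in 27G5, Gbp6 was at -1.43 ± 0.57 and -0.37 after loess, and Dnah6 at -1.58 ± 0.63 and -0.21. Dnah6 had the opposite sign, at 0.08, 0.03 and 0.36, in the Dicer-null, Dnmt1 and Dnmt3a,3b lines of the other arrays. Ssxb2 (-1.37 ± 0.39) and 1700040F15Rik (-1.34 ± 0.02) were well above background on 1 of 2 arrays of 27G5, as 4933427D06Rik (1.89 ± 0.49) was in 27H10. Dyrk4, a kinase, was well above background on all 4 arrays at 1.98 ± 0.82, and at 0.66 after loess.

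Among families with at least 5 measured members and 2 called, the Mage genes had the largest share called. The tetraspanins, membrane proteins that organise receptors into microdomains, followed with 2 of 17 (11.8%), beside 0.731% of all genes tested. Tspan12 was at -2.55 and -2.11 in 27G5 and at -3.78 and -3.52 in 27H10 (1.32 ± 0.12), and Tspan7 at -2.06 and -2.20 in 27G5 and at -3.09 and -3.29 in 27H10 (1.06 ± 0.04). Both were below wild type in both clones. Neither was called after loess normalisation, at 0.73 and 0.95, so that 0 of 17 tetraspanins were called under both scalings, against 4 of 15 Mage genes. Of the 17 tetraspanins 14 were above 0 (52.1% of all genes were), with a median of 0.31. Tspan13 was at 0.97 while Tspan32 was at -0.63. Of 37 Adam and Adamts proteases 2 were called (5.41%). Adamts2, which trims procollagen, was at 1.54 ± 0.07 and Adam1a at -1.11 ± 0.02. Of 288 solute carriers, 4 were higher in 27G5 and 2 in 27H10 (2.08%, beside 0.731% of all genes). Higher in 27G5 were Slc41a2, Slc30a3 (1.66 ± 0.20, and 0.34 after loess), Slco3a1 and Slc39a11. Slc15a2 (-1.07 ± 0.01) and Slco2b1 (-1.24 ± 0.09, and -0.21 after loess) were higher in 27H10. Slco2b1 was not well above background in 27G5, and it had the opposite sign in the Dicer-null, Dnmt1 and Dnmt3a,3b lines of the other arrays, at 0.13, 0.33 and 0.07. Of 311 Zfp genes, Zfp112 (1.46 ± 0.13; 0.42 after loess), Zfp711 (1.13 ± 0.13) and Zfp469 (-1.11 ± 0.11) were called (0.965%), a share near that of all genes.

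Some pathways leaned one way with no member called. Of 25 genes of fatty acid and sterol synthesis, 0 were called and 21 were above 0 in both orientations, beside 39.0% of all genes, with a median of 0.31. The stearoyl-CoA desaturase Scd2 was at 0.90 ± 0.26 and the desaturase Fads1 at 0.65, while the sterol enzymes Sqle and Idi1 were at 0.00 and 0.07. On the arrays without wild type, 21 of the 25 were above 0 between the Dicer-null RNAs (45.4% of all genes were), 9 between the Dnmt1 lines (49.3%) and 19 between the Dnmt3a,3b lines (46.1%). Of 21 genes of FGF-ERK signalling, the route that primes ES cells for differentiation, 0 were called, with a median of -0.25. In both orientations 16 of them were below 0, beside 33.1% of all genes. The ligand Fgf15 was at -0.87 ± 0.14, the ERK phosphatase Dusp6 at -0.80 ± 0.02, Myc at -0.76 ± 0.15 and Phlda1 at -0.71 ± 0.13, while Egr1 was at 0.70. On the arrays without wild type, 17 of the 21 were below 0 between the Dicer-null RNAs (54.6% of all genes were), 9 between the Dnmt1 lines (50.7%) and 10 between the Dnmt3a,3b lines (53.9%). Bmp4 (-0.85 ± 0.08) and its target Id1 (-0.83 ± 0.04) were also lower in 27G5, on a list of 35 Nodal, BMP and Wnt genes with 0 called and a median of -0.06.

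Of 23 pluripotency genes 0 were called, with a median of 0.04, and Dppa3, a maternal-effect gene also known as Stella, was the farthest at 0.97 ± 0.11 (0.55 after the running median of chromosome 6). Of 38 imprinted genes 0 were called, with Peg10 at -0.90 ± 0.32, Igf2 at -0.64 ± 0.13 and Xist at -0.83 ± 0.14. The 3 probes of Xist lay between -2.07 and -0.83. On the arrays without wild type, Peg10 was at -0.10 in the Dicer-null RNAs, -0.15 in the Dnmt1 lines and 0.52 in the Dnmt3a,3b lines. In the same order Igf2 was at -1.93, -1.63 and -1.41, and Xist at -0.40, 0.02 and -0.61. On the arrays with wild type, the methyltransferase genes Dnmt1, Dnmt3a and Dnmt3b were at -0.06 ± 0.05, -0.31 ± 0.17 and -0.41 ± 0.07. The microRNA target Rbl2 was at -0.07 ± 0.18 there. Of 20 genes of the DNA methylation machinery 0 were called, as were 0 of 21 of the small RNA machinery and 0 of 25 ribosomal protein genes, whose median was 0.08.

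**Figure D3:**
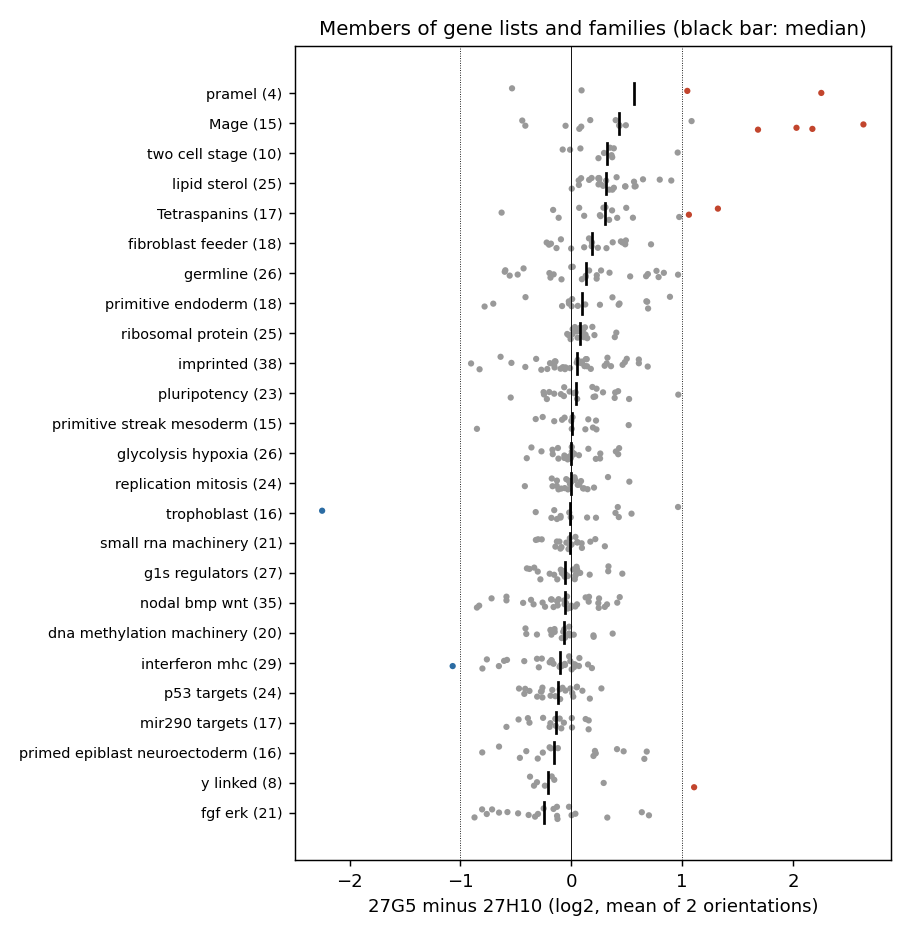
Clone difference (x axis, log2, mean of both orientations) of each tested member of the 23 gene lists and of the Mage and tetraspanin families, with the number tested in brackets, the median as a black bar, members called higher in 27G5 in red and in 27H10 in blue, others in grey; the vertical scatter within a row has no meaning. The Mage row holds 4 red points between 1.69 and 2.64, and the medians of the other rows lie between -0.25 and 0.57.

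The same clone difference was read a second time on the 8 arrays without wild-type RNA, where the Dicer-null RNA of each clone and its derived lines were hybridised. There 27G5 and 27H10 were on separate slides, so slide and clone cannot be told apart. Values on these 8 arrays are differences of log2 intensities after normexp, loess and Aquantile normalisation. They are on another scale than the deposited ratios, so a smaller size there is not by itself a smaller difference. Among genes well above background in both clones, the difference on the wild-type slide correlated with that of the Dicer-null RNAs on these arrays at r = 0.820, and with that between the Dnmt1 lines at r = 0.407 and the Dnmt3a,3b lines at r = 0.518, across 17249 genes. Of the 91 called genes well above background in both clones, 77 (84.6%) had the sign of the call in all 3 lines, beside 43.9% of all such genes. The called genes were chosen for their size, and 1 of the 3 lines is the same Dicer-null cells read again. These shares therefore do not show what a call adds beyond its size. For the genes higher in 27G5, 68 of 68 kept the sign in the Dicer-null RNAs, 64 in the Dnmt1 lines and 65 in the Dnmt3a,3b lines, with median differences of 0.88, 0.94 and 0.79. For those higher in 27H10, 23 of 23 kept it in the Dicer-null RNAs, 14 in the Dnmt1 lines and 21 in the Dnmt3a,3b lines. Their medians were -0.92, -0.40 and -0.59. Among all genes well above background in both clones, the sign was kept by 78.6%, 61.8% and 65.5% in the same order. The 14 of 23 in the Dnmt1 lines was near the share of all genes.

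By gene, the derived lines fell into several patterns. Pramel7 stayed apart by 2.71 in the Dicer-null RNAs, 2.95 in the Dnmt1 lines and 1.79 in the Dnmt3a,3b lines, and Rhox2a by 1.51, 2.88 and 1.83. Asgr2 was at 1.72, 1.71 and 1.46, and H2-Eb1 at -1.34, -1.48 and -1.49, so their differences were near equal in all 3 lines. The Magea differences were smaller in the Dnmt3a,3b lines: Magea3 was at 1.69, 1.26 and 0.64, Magea8 at 1.59, 1.02 and 0.58, Magea6 at 1.24, 0.98 and 0.31, and Magea5 at 1.14, 0.82 and 0.14. Neat1 was at -1.53, -0.38 and -0.75. Nlrp4c, an oocyte gene of the Nlrp family with a difference of 1.31 ± 0.32 on the wild-type slide, was at 1.09, 4.06 and 2.59. Mgl2 was at 0.45, 0.33 and -0.10, and Cdx2 at -0.16, 0.42 and 0.05. After loess on the wild-type slide, Mgl2 was at 0.69 and Cdx2 at -0.60. The differences between lines were not tested.

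**Figure D4:**
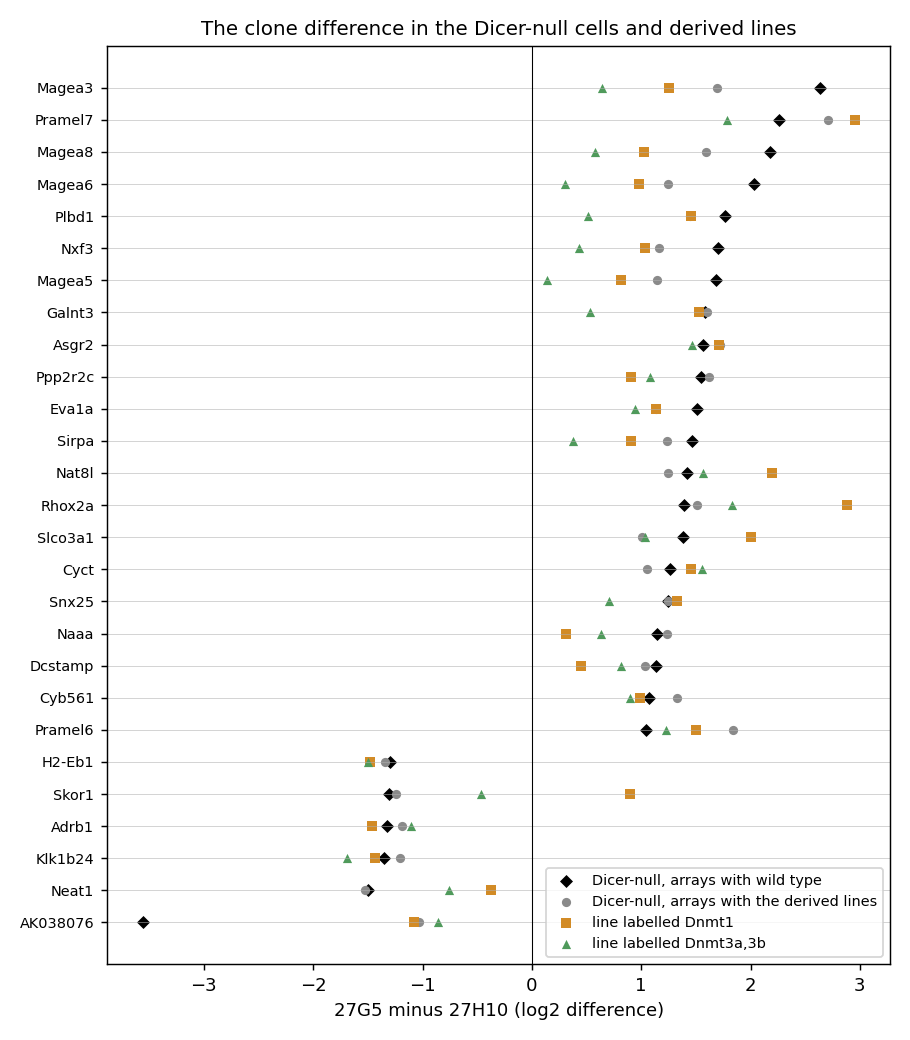
Difference 27G5 minus 27H10 (x axis, log2) for the 27 genes called under both scalings, in the Dicer-null cells on the arrays with wild type (black diamonds), in the Dicer-null cells on the other arrays (grey circles), in the lines labelled Dnmt1 (orange squares) and in those labelled Dnmt3a,3b (green triangles). Skor1 is on opposite sides of 0, at -1.24 in the Dicer-null RNAs and 0.90 in the Dnmt1 lines, and the other 26 genes keep one side. Black diamonds are deposited ratios and the other symbols are values after normexp, loess and Aquantile, so their sizes are not on one scale.

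A test over the 3 lines of each clone (limma on log2 intensities, 3 RNAs per clone, line type as a block, 18577 genes, 2 residual degrees of freedom) called 0 genes at a Benjamini-Hochberg adjusted p under 0.05, where 5277 genes had an unadjusted p under 0.05. The smallest adjusted p was 0.0593, a value that the adjustment gave to many genes alike, so it does not rank them. Of the genes called in the clone difference, Pramel7, Pramel6, Asgr2, Rhox2a, H2-Eb1, Adrb1, Klk1b24 and Psmb8 were among those that shared it. For Magea3, limma gave an adjusted p of 0.0621 and for Skor1 0.688. With the Dicer-null lines left out, limma called 207 genes higher in 27G5 and 106 higher in 27H10, and without the Dnmt1 lines 188 and 90, so the count rested on which lines entered. The lines of a clone share their origin, so this p covers the spread between lines and not that between independent clones.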

How the data were processed

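Total RNA was measured on two-colour arrays of 45018 spots (43379 non-control, 41174 probes). Per the file headers, scanner intensity was extracted by Agilent Feature Extraction 9.1.3.1 (4 arrays with wild type) and 9.5.1.1 (8 others). The scanner files as deposited also hold a log10 ratio of processed signals. The value table deposited by the authors is on the log2 scale, already turned to Dicer-null over wild type; it followed the turned scanner ratio. Median intensity on the 4 arrays was 128 to 135 (green) and 245 to 287 (red), and 62.1% to 69.1% of probes were well above background; the number of arrays limits precision. Clone differences were taken from the value table within one dye orientation, using the brightest probe of each of 27598 genes; 18060 were well above background on both arrays of at least 1 clone. Gene names came through RefSeq accessions (22944 probes), design symbols (9772) or the design name (8458); probe positions are on mm7. The 3-line test used normexp (offset 50), loess, Aquantile and limma 3.58.1 in R 4.3.3, and was tested on simulated data. No per-sample column was left unused (0). Python 3.11.15 made the rest.

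Dye-swapped arrays were taken to hold the same 2 RNAs and were averaged as 1 replicate. Whether RNAs that share a name came from 1 extract is not given in the sources used here. Members and lists were chosen with earlier results of these data known. Named were, of called genes with a symbol and a size of at least 1 after the running median, the 15 highest and 15 lowest; Dicer1, Dnmt1, Dnmt3a, Dnmt3b and Rbl2; of each list the called and up to 2 further members; and the families with the largest share called. Genes called under both scalings, other list members and stretches of neighbouring genes were picked after the values were seen. Alternatives changed scaling, centring, dim filter, probe rule, orientation and line. Some genes that the rule selects are not reported here.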

Additional observations from a re-analysis of the deposited data

Results flagged for a closer look

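Among the called genes, 2 differed between the clones one way in the Dicer-null RNAs and the opposite way between the lines labelled Dnmt1, by at least 0.5 in both dyes each time. Skor1, a corepressor of the Ski family, was at -1.30 on the wild-type slide and at -1.24 in the Dicer-null RNAs of the other arrays, and at 0.90 between the Dnmt1 lines (0.65 and 1.15 in the 2 dyes). Cyp1a1, a cytochrome P450 induced through the aryl hydrocarbon receptor, was at -1.24 and -0.91 in the Dicer-null RNAs, and at 1.21 between the Dnmt1 lines (0.95 and 1.47). In the Dnmt3a,3b lines they were at -0.47 and -0.46. The difference between lines was not tested.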

How the results depend on the processing

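The main counts were 97 genes higher in 27G5 and 35 in 27H10. They were 23 and 6 after normexp and loess, 166 and 67 with no filter on dim probes, 58 and 20 for genes well above background in both clones and in wild type on all 4 arrays, and 157 and 70 with the threshold on the mean alone. With 1 orientation left out they were 194 to 204 and 112 to 130, since a single array then decides; by construction these hold all 97 and all 35. With both clones well above background (added after the data were seen) they were 68 and 23. The scanner log ratio, median centring, the median over probes, the running median and leaving out chromosomes 6 and 11 moved neither count by more than 1.5 times. The sign of the called genes was kept under each of these settings in which they had a value. Only normexp and loess, the scanner log ratio and the median over probes could have changed it. The other settings reuse the same differences or shift them by less than the size that the call requires, so the sign was fixed there. The 3-line comparison called 0 and 0 genes; the Agilent processed signals gave 1 gene higher in 27H10, and leaving out 1 line type gave 0 to 207 and 0 to 106. The cause of these changes was not tested. No paired analysis was possible because the replicate numbers mark dye-swapped arrays, which were taken to hold the same 2 RNAs and count as 1 replicate. The clone difference comes from no test. With each clone taken as 1 RNA, the spread between cultures is unknown.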

Other observations

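Of the 73 gene lists and families examined, 49 had no member called. Single members of other families stood apart. Fgf13, an intracellular fibroblast growth factor homologue on the X chromosome, was at 1.29 ± 0.29, the clade B serpin gene Serpinb5 at 1.21 ± 0.08 and the homeobox gene Hoxb2, well above background on 1 of 2 arrays of 27H10, at 1.31 ± 0.32. Fbn1, encoding the microfibril protein fibrillin 1, was at 1.28 ± 0.02, with ratios to wild type of 0.53 and -0.70 in 27G5 and of -0.73 and -1.99 in 27H10, so both clones were lower on array 2 and the difference was alike on both arrays. Blnk, a B-cell adaptor, was at 1.23 ± 0.24, and at 1.33, 2.31 and 1.62 in the Dicer-null, Dnmt1 and Dnmt3a,3b lines. Vldlr, a lipoprotein receptor, was at 1.28 ± 0.28 on the wild-type slide and at 0.98 there after loess. On the other arrays it was at 0.71 in the Dicer-null RNAs, but at -0.28 and -0.21 in the Dnmt1 and Dnmt3a,3b lines. Higher in 27H10 were the peptide transporter gene Slc15a2 (-1.07 ± 0.01, with probes from -1.07 to -0.23), the leukotriene receptor gene Ltb4r1 (-1.12 ± 0.08) and the homeobox gene Meox1 (-1.23 ± 0.14).

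The farthest value in favour of 27H10 came from a transcript without a gene symbol on chromosome 13 (AK038076 in the array design), picked after its value was seen. It was at 0.22 and 0.77 in 27G5, where it was not well above background, and at 4.59 and 3.52 in 27H10. Its difference was -3.56 ± 1.14 on the deposited scale and -1.22 after loess, and the fold is not known. Between the Dicer-null, Dnmt1 and Dnmt3a,3b lines it was at -1.03, -1.08 and -0.86.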
